A study of Mus musculus with 13 samples.

Results

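The comparison set 3 RNA-seq libraries of double mutant hematopoietic stem and progenitor cells against 3 libraries of Srsf2 mutated cells, all from mouse bone marrow. The 6 libraries were chosen by their genotype labels out of the 10 bulk libraries of a series of 13 samples, and all 6 were used. Double mutant cells are labelled as carrying a Setd2 knockout together with a mutated Srsf2, and Srsf2 mutated cells as carrying the mutated Srsf2 alone. By label, the Srsf2 mutation was common to both groups and the Setd2 knockout was the difference between them. Whether the groups also differed in other ways is not stated. The other bulk libraries, 2 Setd2 knockout and 2 wild type, enter only the test of the interaction given last. For the 3 single-cell samples of the series, which were not analysed here, the labels name the alleles as Setd2 fl/fl and Srsf2 P95H/+ under Mx1-Cre, an interferon-inducible recombinase switched on by pIpC that is also active outside blood cells. Those single-cell samples were Lin- c-Kit+ cells from transplanted marrow, taken 4 weeks after pIpC. The labels do not state that sort, transplant or time for the bulk libraries, nor the age, strain and sex of the mice. They also do not say whether separate mice gave the replicates of a group, so the p-values measure the spread between these libraries, which may be technical.

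SETD2 is the enzyme that places the third methyl group on lysine 36 of histone H3 along the bodies of transcribed genes, a mark read by DNA methyltransferases, by mismatch repair and by factors that guide splicing. SRSF2 belongs to the SR proteins, which bind exonic sequence and help the spliceosome choose exons, and its proline 95 hotspot is mutated in myelodysplastic syndromes and chronic myelomonocytic leukemia. Both genes are mutated in human myeloid neoplasms, and the blood stem and progenitor cells studied here give rise to neutrophils, monocytes, red cells, platelets and lymphocytes.

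Total counts lay between 32117387 and 50445434 per double mutant library and between 39142427 and 47341114 per Srsf2 mutated library. After a filter on low counts, 17515 genes were tested with edgeR's quasi-likelihood test, and a gene was called changed at a Benjamini-Hochberg adjusted p below 0.05. Of these, 6091 genes (34.8%) were called: 3209 (18.3%) were higher in double mutant cells and 2882 (16.5%) were lower. At least 2-fold differences were held by 1270 of the higher and 477 of the lower genes. The values of the 2 groups did not overlap for 48.4% of the tested genes. Each ± after a log2 value is the standard error (SE) of the log2 fold change of double mutant over Srsf2 mutated cells. The first principal component of the log2 CPM (counts scaled to a common library total after TMM normalization) carried 57.1% of the variance and separated the groups, and the second, with 17.6%, set replicate 3 of the Srsf2 mutated group apart from the other libraries of its group. Srsf2 mutated replicates varied more among themselves, with a biological coefficient of variation of 0.176 against 0.0752 among the double mutant replicates. Without replicate 3 of the Srsf2 mutated group, 7211 genes were called. With upper-quartile scaling the split turned to 2847 higher and 3739 lower genes, so small differences of either sign depended on the scaling.

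**Figure D1:**
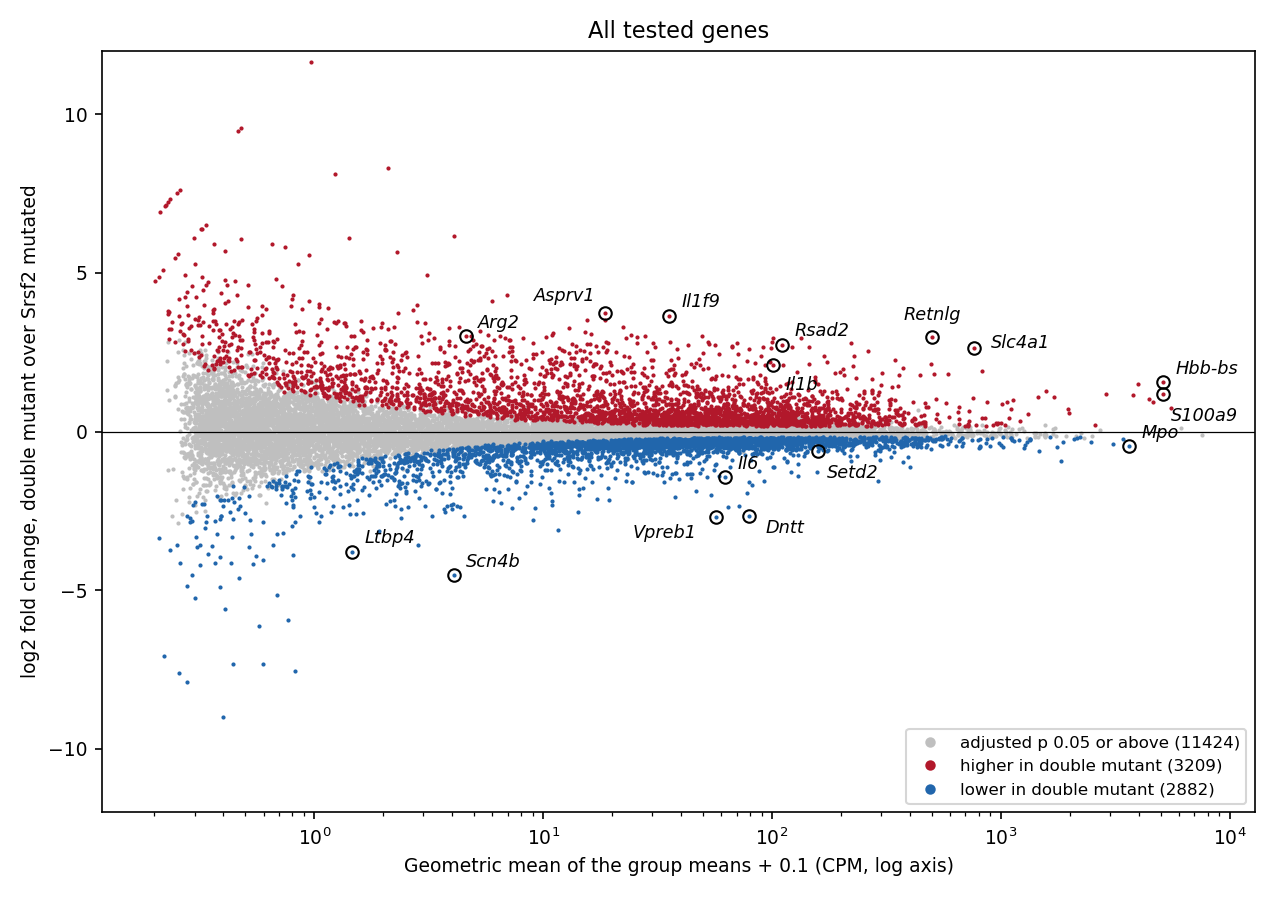
Log2 fold change of double mutant over Srsf2 mutated cells (vertical axis) against the geometric mean of the 2 group means plus 0.1 CPM (horizontal log axis) for the 17515 tested genes. Genes called higher (3209) are red, genes called lower (2882) are blue, and circled genes are described in the text; red points reach further from 0 than blue ones at medium and high expression.

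Setd2 itself (ENSMUSG00000044791, chromosome 9, 110532597 to 110618633, GRCm38) had 129.9, 129 and 129 CPM in double mutant replicates 1 to 3, against 209.8, 219.8 and 158 CPM in Srsf2 mutated replicates 1 to 3. Every double mutant library was below every Srsf2 mutated library, 1.52-fold lower on average (log2 -0.60 ± 0.104; edgeR adjusted p = 8.26e-04). A count over the whole gene cannot show whether the deleted exons were missing, and the difference is therefore no measure of the share of deleted cells. Srsf2, which carries the mutation in both groups, had 222, 218 and 225 CPM in double mutant cells and 224, 221 and 246 CPM in Srsf2 mutated cells. The Srsf2 ranges overlapped (log2 -0.06 ± 0.0622; edgeR adjusted p = 0.539), and a gene count does not show the point mutation.

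Genes that write, remove or read histone H3 lysine 36 methylation moved in both directions by small amounts. Of 26 tested genes, Setd2 included, 4 were higher and 8 were lower, against 18.3% and 16.5% of all tested genes. Their median log2 fold change was -0.14, against -0.008 for all tested genes. Dnmt3b, the DNA methyltransferase that is drawn to methylated lysine 36, fell to 34.1, 33.8 and 35.5 CPM in double mutant cells, against 53.6, 54.2 and 50.3 CPM in Srsf2 mutated cells (log2 -0.61 ± 0.0689; edgeR adjusted p = 3.01e-05). Nsd2, which adds the second methyl group, fell (log2 -0.37 ± 0.0667), and its relative Nsd3 rose (log2 0.49 ± 0.0687). Among the Polycomb-like readers, Phf1 rose (log2 0.92 ± 0.121) while Mtf2 fell (log2 -0.44 ± 0.0654). The eraser Kdm4a rose (log2 0.44 ± 0.0823). The list held 13 lower genes without replicate 3 of the Srsf2 mutated group or with upper-quartile scaling.

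Called splicing genes differed by less than 2-fold. Of 12 SR protein genes tested, 2 were lower and none was higher, against 16.5% lower and 18.3% higher among all tested genes: Srsf9 fell (log2 -0.30 ± 0.0776) and so did Srsf3 (log2 -0.21 ± 0.0636), whose call was lost without any 1 of the double mutant replicates. Without replicate 3 of the Srsf2 mutated group, or with upper-quartile scaling, 4 were lower. With no filter, over all 10 libraries, without replicate 2 of the double mutant group or without any 1 of the Srsf2 mutated replicates, 1 was higher. In the CLK and SRPK family, the kinases that phosphorylate SR proteins, 3 of 9 genes rose and none fell (3 fell without replicate 3 of the Srsf2 mutated group), led by Clk3 with 127, 136 and 134 CPM in double mutant cells and 77.1, 84.7 and 70.8 CPM in Srsf2 mutated cells (log2 0.77 ± 0.0763). Of 40 spliceosome and hnRNP genes, 15 were lower and 3 were higher, where 16.5% and 18.3% of all tested genes were, with a median of -0.15 on the log2 scale. Prpf19 (log2 -0.40 ± 0.0565), Hnrnph1 (log2 -0.37 ± 0.0525) and Sf3a3 (log2 -0.42 ± 0.0718) were among the lower ones, and Zrsr1, a relative of a 3' splice site factor, was higher (log2 0.87 ± 0.116). The count of lower spliceosome genes depended on the processing: it ranged from 9 without replicate 3 of the double mutant group to 27 with upper-quartile scaling, and it was 26 without replicate 2 and 23 without replicate 3 of the Srsf2 mutated group. Of the higher ones, 1 was left without any 1 of the double mutant replicates or without replicate 1 of the Srsf2 mutated group. The deposited tables count whole genes, so exon use was not analysed here.

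The progenitor markers Kit and Cd34 were present in every library. Cd34 had 159, 158 and 153 CPM in double mutant cells and 225, 188 and 229 CPM in Srsf2 mutated cells, beside transcripts of maturing neutrophils, red cell precursors and B cells in all 6 libraries.

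Late neutrophil granule genes stood higher in double mutant cells without exception. Many genes of the secondary and tertiary granule list mark neutrophils from the myelocyte stage onward, and some, such as Lyz2, are also in other lists. All 31 tested genes of this list were called higher, against 18.3% of all tested genes. The groups overlapped for none of the 31, and 48.4% of all tested genes showed no overlap either. Their median log2 fold change was 1.10, and their summed level was 47184 to 47896 CPM per double mutant library and 20902 to 25591 CPM per Srsf2 mutated library. In bulk RNA, fewer cells of a type and less RNA per cell cannot be told apart, and this holds for every lineage list that follows. Mmp8, the neutrophil collagenase, had 764, 758 and 756 CPM in double mutant cells and 161, 156 and 157 CPM in Srsf2 mutated cells. The replicates of each group lay close together and the groups were 4.81-fold apart (log2 2.27 ± 0.0546; edgeR adjusted p = 2.97e-10). Retnlg, a resistin-like protein of neutrophils, had 1402, 1431 and 1387 CPM in double mutant cells and 170.5, 159 and 206 CPM in Srsf2 mutated cells (log2 2.98 ± 0.0897; edgeR adjusted p = 7.57e-10). This was the widest difference in the list. The alarmin pair S100a8 and S100a9, which form calprotectin, rose by like amounts. S100a8 had 5461, 5762 and 5661 CPM in double mutant cells and 2614, 2023 and 2961 CPM in Srsf2 mutated cells (log2 1.15 ± 0.107; edgeR adjusted p = 6.06e-06), and S100a9 had 8147, 7496 and 7405 CPM in double mutant cells and 3598, 2799 and 3811 CPM in Srsf2 mutated cells (log2 1.18 ± 0.0955). Mmp9, the gelatinase of tertiary granules, was 3.49-fold higher (log2 1.80 ± 0.0565). The secondary granule genes Ltf (log2 0.92 ± 0.0538), Camp (log2 0.72 ± 0.0739) and Ngp (log2 0.75 ± 0.0679) moved less. In mean deposited FPKM, which accounts for gene length, Retnlg reached 2294 in double mutant cells and 310.2 in Srsf2 mutated cells, while Ngp reached 5688 in double mutant cells and 3616 in Srsf2 mutated cells.

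Genes of the primary granule list fell more often than they rose. Beside granule proteins made at the promyelocyte stage, the list holds other genes, such as Igfbp4 and the regulator Cebpe. Of its 17 tested genes, 9 were lower, 3 were higher and 5 were not called, against 16.5% lower and 18.3% higher among all tested genes. The median was -0.21. Mpo, myeloperoxidase, had 3080, 3175 and 3044 CPM in double mutant cells and 4031, 4133 and 4656 CPM in Srsf2 mutated cells. The 2 ranges did not touch, and Mpo was 1.38-fold lower (log2 -0.46 ± 0.0593; edgeR adjusted p = 8.89e-05). The serine proteases Prtn3 (log2 -0.60 ± 0.0851), Ctsg (log2 -0.46 ± 0.0687) and Elane (log2 -0.24 ± 0.0713) fell as well. Igfbp4 fell most (log2 -0.95 ± 0.0706), with 276, 265 and 264 CPM in double mutant cells and 473, 514 and 568 CPM in Srsf2 mutated cells. The 3 higher genes were Fcnb (log2 0.91 ± 0.0875), the histidine decarboxylase gene Hdc (log2 0.48 ± 0.0528) and the late granule regulator Cebpe (log2 0.40 ± 0.118). The Cebpe call was lost when replicate 1 of the Srsf2 mutated group or any double mutant replicate was left out.

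**Figure D2:**
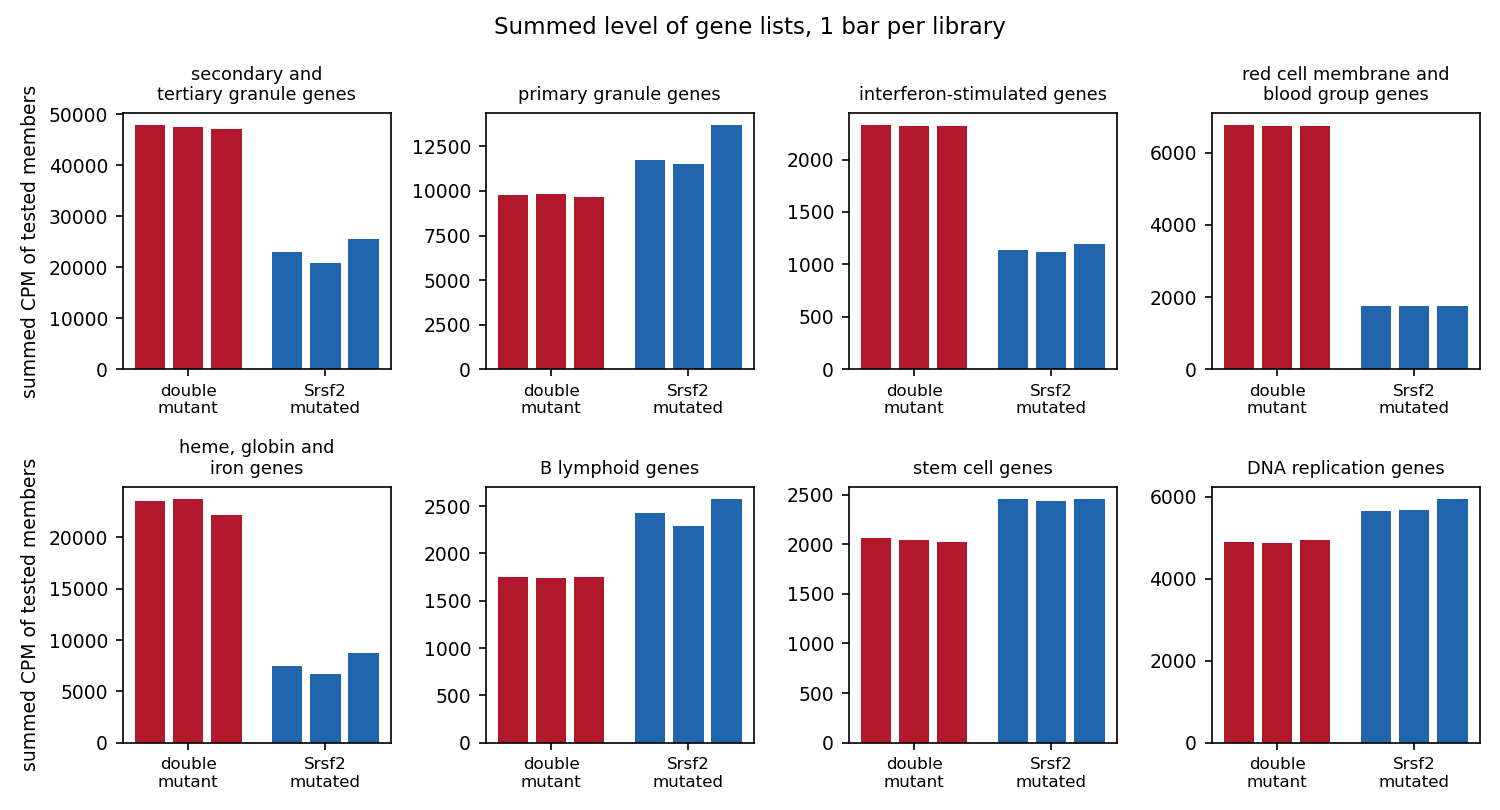
Summed CPM of the tested members of 8 gene lists in each library, 1 bar per library, double mutant libraries in red on the left and Srsf2 mutated libraries in blue on the right. The secondary and tertiary granule list stands at 47184 CPM or above in every double mutant library and at 25591 CPM or below in every Srsf2 mutated library, while the primary granule, B lymphoid, stem cell and DNA replication lists stand lower in all double mutant libraries.

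The list of receptors and effectors linked to suppressive myeloid cells was mostly higher. Of its 35 tested genes, 24 were higher, 2 were lower and 9 were not called, against 18.3% higher and 16.5% lower among all tested genes. The median was 0.52. S100a8 and S100a9 belong to this list too, and several others mark mature neutrophils. Arg2, the mitochondrial arginase, was 8.03-fold higher with 12.7, 14 and 11 CPM in double mutant cells and 1.12, 1.94 and 1.63 CPM in Srsf2 mutated cells (log2 3.0 ± 0.201; edgeR adjusted p = 3.81e-07). Arg1 and Nos2, the arginine-consuming enzymes that define suppressor activity in many assays, were expressed at low levels and not called. Arg1 had 0.58, 1.09 and 1.02 CPM in double mutant cells and 0.739, 0.941 and 0.331 CPM in Srsf2 mutated cells, with overlapping values (log2 0.42 ± 0.492; edgeR adjusted p = 0.559). Nos2 had 0.806, 0.783 and 0.614 CPM in double mutant cells and 0.246, 0.501 and 0.382 CPM in Srsf2 mutated cells, which did not overlap (log2 0.95 ± 0.515; edgeR adjusted p = 0.183). The lectin receptors Clec4d and Clec4e, which sense fungal and mycobacterial glycolipids, were 6.57-fold and 3.13-fold higher (log2 2.72 ± 0.0748 and log2 1.64 ± 0.0819). The subunits of the phagocyte oxidase rose by less: Cybb (log2 0.60 ± 0.0602), Ncf1 (log2 0.52 ± 0.0548) and Ncf4 (log2 0.34 ± 0.058). The lower genes were Tgfb1, with 280, 301 and 269 CPM in double mutant cells and 365, 398 and 412 CPM in Srsf2 mutated cells (log2 -0.47 ± 0.0667), and Vegfa (log2 -0.21 ± 0.0712), whose call was lost under the replicate block (edgeR adjusted p = 0.0645) and when any replicate other than replicate 3 of the Srsf2 mutated group was left out.

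Of 26 tested chemokine and chemoattractant receptor genes, 14 were higher and none was lower, against 18.3% and 16.5% of all tested genes. The median was 1.05. Upper-quartile scaling, or leaving out replicate 3 of the Srsf2 mutated group, gave 2 lower genes. Cxcr2, the receptor through which neutrophils leave the marrow, had 177, 183 and 178 CPM in double mutant cells and 38, 38.7 and 42.4 CPM in Srsf2 mutated cells. All double mutant values stood far above the highest Srsf2 mutated value, and the mean difference was 4.52-fold (log2 2.18 ± 0.0687; edgeR adjusted p = 1.07e-09). Ccr1, a receptor for CCL3 and CCL5 on neutrophils and monocytes, had 199, 205 and 211 CPM in double mutant cells and 38, 36.6 and 42.9 CPM in Srsf2 mutated cells (log2 2.39 ± 0.0758). The formyl peptide receptor Fpr1 (log2 2.35 ± 0.0956), the platelet activating factor receptor Ptafr (log2 2.03 ± 0.0737) and Ccr2, the receptor of inflammatory monocytes (log2 1.11 ± 0.0603), were also higher. Cxcr4, the retention receptor that holds cells in the marrow, was not called (log2 -0.13 ± 0.0643; edgeR adjusted p = 0.143). Csf3r, the receptor for granulocyte colony stimulating factor, was 2.46-fold higher (log2 1.30 ± 0.0600), with 436, 434 and 416 CPM in double mutant cells and 174, 182 and 166 CPM in Srsf2 mutated cells.

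**Figure D3:**
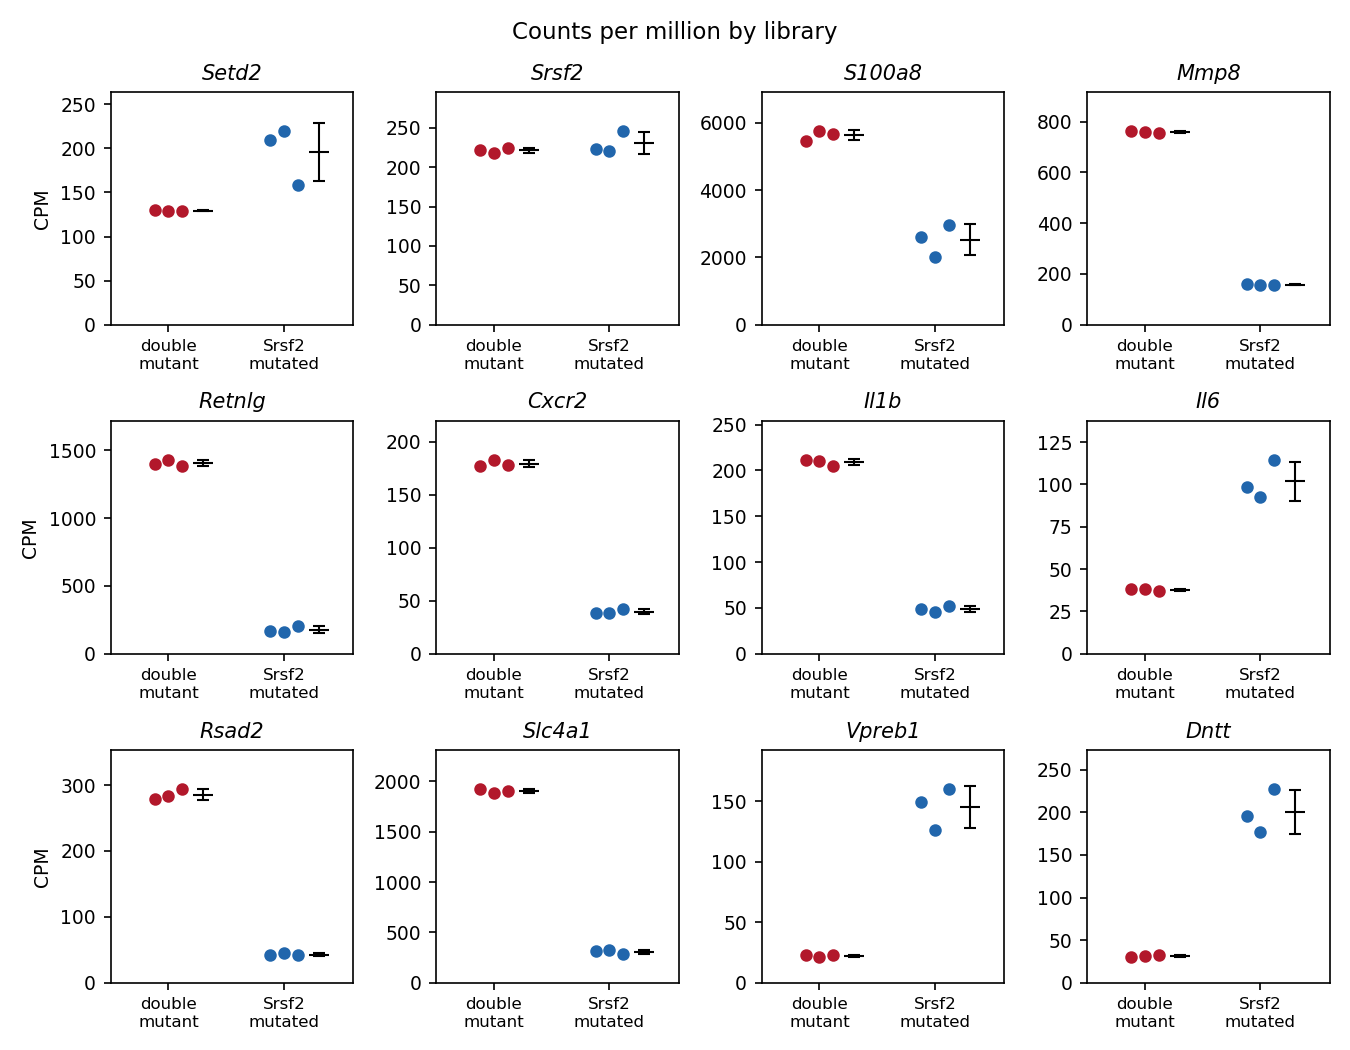
CPM of 12 genes in each library on linear axes that start at 0, double mutant (red, left) and Srsf2 mutated (blue, right); black marks give the mean and SD of 3 libraries. Setd2, Il6, Vpreb1 and Dntt are lower in all double mutant libraries, Srsf2 overlaps, and the other 7 genes are higher in all double mutant libraries.

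The interleukin-1 family and its receptors changed in part. Of 25 tested genes of the family and the inflammasome, 9 were higher and 3 were lower, against 18.3% and 16.5% of all tested genes. The median was 0.12. Il1b had 212, 211 and 205 CPM in double mutant cells and 48.8, 45.1 and 52.5 CPM in Srsf2 mutated cells. The double mutant libraries were 4.28-fold higher with no overlap (log2 2.10 ± 0.0716; edgeR adjusted p = 1.88e-09). Il1f9, which encodes interleukin-36 gamma, rose most, with 123, 126 and 126 CPM in double mutant cells and 11.5, 9.77 and 8.55 CPM in Srsf2 mutated cells (log2 3.65 ± 0.103; edgeR adjusted p = 5.71e-10). A decoy and an antagonist of the pathway rose too. Il1r2, the decoy receptor, had 194, 191 and 201 CPM in double mutant cells and 31.9, 32.4 and 31.2 CPM in Srsf2 mutated cells (log2 2.62 ± 0.0646), and Il1rn, the receptor antagonist, was 3.61-fold higher (log2 1.85 ± 0.108). The signalling receptor Il1r1 was not called (log2 -0.04 ± 0.183; edgeR adjusted p = 0.884), nor were Nlrp3 (log2 -0.09 ± 0.072), Casp1 (log2 -0.10 ± 0.0773) and Pycard (log2 -0.14 ± 0.111), which build the inflammasome. The lower genes were the inhibitory receptor Sigirr (log2 -0.53 ± 0.0959), the interleukin-18 receptor Il18r1 (log2 -0.50 ± 0.116) and Nlrc4 (log2 -0.41 ± 0.113), which lost its call without replicate 1 of the double mutant group. Without replicate 3 of the Srsf2 mutated group, 5 genes of the list were lower.

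Other cytokines split, with 17 of 35 tested genes higher and 8 lower, against 18.3% and 16.5% of all tested genes, and a median of 0.43. Il6 was among the lower ones and fell to 38.2, 38.1 and 37.2 CPM in double mutant cells, against 98.7, 92.3 and 114 CPM in Srsf2 mutated cells. That was a 2.69-fold lower level with no overlap between the groups (log2 -1.43 ± 0.0855; edgeR adjusted p = 1.48e-07). Tnf rose by less, with 51.6, 53.1 and 49 CPM in double mutant cells and 35.1, 35.1 and 37.1 CPM in Srsf2 mutated cells (log2 0.52 ± 0.0694; edgeR adjusted p = 1.28e-04). Chemokine ligands divided by family member. Cxcl2, a ligand of CXCR2, had 228, 216 and 247 CPM in double mutant cells and 56.2, 44.9 and 60 CPM in Srsf2 mutated cells (log2 2.10 ± 0.102). Ccl2, the ligand of CCR2, was 3.92-fold higher (log2 1.97 ± 0.103), and Ccl6 was 2.38-fold higher (log2 1.25 ± 0.067). In contrast Ccl4 fell to 103, 97.3 and 101 CPM in double mutant cells, against 237, 219 and 276 CPM in Srsf2 mutated cells (log2 -1.28 ± 0.0835), and Ccl3 (log2 -0.78 ± 0.0956) and Ccl9 (log2 -0.57 ± 0.067) fell with it. Csf1, the macrophage growth factor, was 2.38-fold lower (log2 -1.25 ± 0.0764).

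Signalling lists below these receptors held called genes in both directions, and the Toll-like receptor list leaned higher. Their counts stand beside 18.3% higher and 16.5% lower among all tested genes. Among 34 NF-kB subunits, inhibitors and targets, 11 were higher and 8 were lower, with a median of 0.06, and none of the 5 subunit genes Nfkb1, Nfkb2, Rela, Relb and Rel was called. Tnfaip2, a target gene of the pathway, rose (log2 1.32 ± 0.0631), whereas Nfkbiz, an inducible regulator, fell (log2 -0.47 ± 0.0586). Of 28 Toll-like receptor and adaptor genes, 13 were higher and 2 were lower, with a median of 0.28. Tlr13, a sensor of bacterial ribosomal RNA in mice, had 95.2, 91.2 and 88.3 CPM in double mutant cells and 23, 24.8 and 19.5 CPM in Srsf2 mutated cells (log2 2.03 ± 0.0921; edgeR adjusted p = 1.56e-08). Tlr2 (log2 1.11 ± 0.0631), Tlr8 (log2 1.79 ± 0.122) and the kinase Irak2 (log2 1.08 ± 0.0793) also rose, and the lower genes Irak1 (log2 -0.27 ± 0.0641) and Traf6 (log2 -0.22 ± 0.0684) both lost their calls without replicate 3 of the double mutant group. Traf6 also lost its call without replicate 1 or 2 of either group, and 4 genes were lower with upper-quartile scaling. Of 36 JAK-STAT and SOCS genes, 13 were higher and 7 were lower, with a median of 0.12. The feedback inhibitor Socs2 fell to 9.35, 8.94 and 8.9 CPM in double mutant cells, against 23.6, 29.5 and 22.4 CPM in Srsf2 mutated cells (log2 -1.48 ± 0.117), and Csf2ra, the receptor for granulocyte-macrophage colony stimulating factor, was 1.86-fold higher (log2 0.89 ± 0.0588). Upper-quartile scaling gave 11 lower genes in the JAK-STAT list.

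Most interferon-stimulated genes rose. Of 43 tested genes, 35 were higher and 2 were lower, against 18.3% and 16.5% of all tested genes, with a median log2 fold change of 0.89. Values did not overlap between the groups for 38 of the 43 genes, against 48.4% of all tested genes. Their summed level was 2322 to 2327 CPM per double mutant library and 1117 to 1193 CPM per Srsf2 mutated library. Rsad2, the antiviral enzyme viperin, had 279, 284 and 294 CPM in double mutant cells and 42.3, 44.7 and 41.4 CPM in Srsf2 mutated cells. The groups were 6.67-fold apart with little spread inside either (log2 2.74 ± 0.0649; edgeR adjusted p = 2.97e-10). Isg15, a ubiquitin-like modifier, had 97.9, 93.8 and 93.4 CPM in double mutant cells and 13.3, 12 and 15 CPM in Srsf2 mutated cells (log2 2.82 ± 0.0898). Oas3, which makes the second messenger that activates RNase L, had 105, 106 and 106 CPM in double mutant cells and 21.7, 22.4 and 20.9 CPM in Srsf2 mutated cells (log2 2.29 ± 0.0685). Cxcl10, an interferon-induced chemokine, was 4.04-fold higher (log2 2.01 ± 0.077). The transcription factors of the pathway rose by less: Irf7 (log2 1.51 ± 0.0843), Irf9 (log2 0.67 ± 0.064) and Stat2 (log2 0.59 ± 0.0746). The interferon receptor Ifnar2 rose (log2 0.44 ± 0.0691), while Ifnar1 was not called (log2 0.10 ± 0.066). The lower genes were Gbp3 (log2 -0.20 ± 0.0677), whose call was lost without replicate 2 of the Srsf2 mutated group, without any of the double mutant replicates and under the replicate block (edgeR adjusted p = 0.0736), and Ifi44 (log2 -0.80 ± 0.28), whose call was lost without replicate 1 or 3 of the Srsf2 mutated group and without replicate 1 or 2 of the double mutant group.

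The promoters of the most clearly changed interferon-stimulated genes are shown because they carry the core of the interferon response element, the sequence that interferon-activated factors bind. The 250 bases before the start of transcription were taken from RefSeq (GRCm38.p6), 5′ to 3′ on the gene's strand. Matches to GAAANNGAA on either strand, overlapping ones included, are in capitals.
Rsad2 (chr12:26456453-26456702, minus strand): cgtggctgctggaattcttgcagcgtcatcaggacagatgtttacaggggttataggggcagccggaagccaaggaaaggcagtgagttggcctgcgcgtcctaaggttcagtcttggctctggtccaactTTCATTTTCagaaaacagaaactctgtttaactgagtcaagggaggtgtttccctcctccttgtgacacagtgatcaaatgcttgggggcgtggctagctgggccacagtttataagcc
Oas3 (chr5:120777660-120777909, minus strand): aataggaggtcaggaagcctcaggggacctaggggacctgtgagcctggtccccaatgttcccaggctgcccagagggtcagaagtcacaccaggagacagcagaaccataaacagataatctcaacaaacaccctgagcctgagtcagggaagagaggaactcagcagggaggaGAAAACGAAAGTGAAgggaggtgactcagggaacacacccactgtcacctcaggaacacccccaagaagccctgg
Isg15 (chr4:156200819-156201068, minus strand): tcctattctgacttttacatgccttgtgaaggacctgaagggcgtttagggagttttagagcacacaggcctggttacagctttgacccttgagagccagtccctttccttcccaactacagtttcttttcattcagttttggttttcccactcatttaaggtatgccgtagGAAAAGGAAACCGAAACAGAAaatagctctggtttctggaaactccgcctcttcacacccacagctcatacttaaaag
Rsad2 held 1 match, Oas3 held 2 and Isg15 held 3. A promoter could be matched for 11413 of the 17515 tested genes, and 742 of these (6.5%) held the motif in the same window. Among the higher interferon-stimulated genes, 26 of 35 had a promoter in the table and 16 of the 26 (61.5%) held the motif. Over all tested genes of the list, called or not, it was found in 19 of 33 promoters, so its frequency goes with membership of the list. A match is a run of letters and does not show that a factor was bound.

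Red cell membrane genes had the highest median of the 34 lists. Of 20 tested red cell membrane and blood group genes, 19 were higher and 1 was lower, against 18.3% and 16.5% of all tested genes. The median log2 fold change was 2.63. Slc4a1, the anion exchanger band 3, had 1927, 1888 and 1905 CPM in double mutant cells and 313, 322 and 285 CPM in Srsf2 mutated cells. The groups were 6.21-fold apart (log2 2.63 ± 0.0612; edgeR adjusted p = 2.97e-10). Rhag, the Rh-associated glycoprotein, had 138, 137 and 144 CPM in double mutant cells and 16, 16.5 and 19.6 CPM in Srsf2 mutated cells, an 8.04-fold difference (log2 3.01 ± 0.0877). The skeleton genes Sptb (log2 2.68 ± 0.103), Ank1 (log2 2.62 ± 0.0923), Epb42 (log2 2.73 ± 0.0687) and Add2 (log2 2.82 ± 0.0725) rose with them. The exception was Bcam, the Lutheran blood group glycoprotein, with 0.0322, 0.0217 and 0 CPM in double mutant cells and 0.492, 0.621 and 0.534 CPM in Srsf2 mutated cells (edgeR adjusted p = 0.00161), and it did not pass a filter of 10 counts in every library. Of 21 tested heme, globin and iron genes, 20 were higher and none was lower, with a median of 1.78. Hbb-bs, an adult beta globin, had 9242, 8983 and 8254 CPM in double mutant cells and 2869, 2615 and 3473 CPM in Srsf2 mutated cells (log2 1.56 ± 0.0905; edgeR adjusted p = 1.12e-07). Globin genes took 1.6% to 1.76% of the counts of the double mutant libraries and 0.533% to 0.689% of those of the Srsf2 mutated libraries. Alas2, the first enzyme of heme synthesis in red cell precursors, was 3.42-fold higher (log2 1.78 ± 0.0607), and the ubiquitous Alas1 was not called (log2 -0.02 ± 0.0546).

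Most regulators of the lineage rose too. Of 15 tested erythroid transcription factors and receptors, 9 were higher and 1 was lower, against 18.3% and 16.5% of all tested genes. The median was 0.81. Klf1 was 5.57-fold higher (log2 2.48 ± 0.146), Gfi1b 4.02-fold (log2 2.0 ± 0.0922), Tal1 3.21-fold (log2 1.68 ± 0.0701) and Gata1 2.47-fold (log2 1.30 ± 0.0915). Epor, the erythropoietin receptor, had 59.8, 71.7 and 66.3 CPM in double mutant cells and 11.8, 15 and 14.8 CPM in Srsf2 mutated cells (log2 2.25 ± 0.106; edgeR adjusted p = 2.12e-08). Tfrc, the transferrin receptor, was 1.92-fold higher (log2 0.94 ± 0.0545). The lower gene was Kit (log2 -0.34 ± 0.0632), the stem cell factor receptor used to sort progenitors, with 165, 162 and 157 CPM in double mutant cells and 202, 218 and 195 CPM in Srsf2 mutated cells.

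For the red cell membrane list, the 250 bases before the start are shown for the pair of higher genes with the smallest adjusted p among those that hold a site for GATA factors. Matches to AGATAA on either strand are in capitals (RefSeq, GRCm38.p6).
Epb42 (chr2:121036878-121037127, minus strand): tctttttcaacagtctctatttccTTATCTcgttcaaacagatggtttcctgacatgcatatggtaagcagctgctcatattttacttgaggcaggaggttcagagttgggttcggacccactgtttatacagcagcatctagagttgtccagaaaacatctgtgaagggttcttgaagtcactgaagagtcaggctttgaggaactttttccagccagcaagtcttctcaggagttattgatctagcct
Rhd (chr4:134864286-134864535, plus strand): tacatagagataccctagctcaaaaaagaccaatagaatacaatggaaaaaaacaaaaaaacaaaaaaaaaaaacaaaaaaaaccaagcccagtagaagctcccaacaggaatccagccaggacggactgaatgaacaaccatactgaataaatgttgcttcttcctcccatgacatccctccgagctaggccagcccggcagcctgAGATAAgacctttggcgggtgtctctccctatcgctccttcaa
The site was found in 719 of the 11413 promoters (6.3%). It was found in 4 of the 12 promoters (33.3%) of higher red cell membrane genes and in 2 of 15 (13.3%) of higher heme, globin and iron genes, those of Alas2 and Hbb-bs. With all tested genes of these lists, called or not, it was in 4 of 13 and 2 of 16 promoters. Its frequency thus describes the lists and not the change.

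B lymphoid genes had the highest share of lower genes among the 34 lists. Of 26 tested genes, 21 were lower and 2 were higher, against 16.5% and 18.3% of all tested genes, with a median log2 fold change of -1.36. Vpreb1, part of the surrogate light chain of pre-B cells, fell to 22.9, 21.6 and 22.6 CPM in double mutant cells, against 149, 126 and 160.4 CPM in Srsf2 mutated cells. It was 6.49-fold lower with no overlap (log2 -2.70 ± 0.0937; edgeR adjusted p = 2.12e-09). Dntt, the terminal transferase that adds bases at the joints of rearranging genes, fell to 30.3, 31.7 and 32.4 CPM in double mutant cells, against 196, 176 and 228 CPM in Srsf2 mutated cells (log2 -2.67 ± 0.0946). Igll1, the partner of Vpreb1, was 5.03-fold lower (log2 -2.33 ± 0.0847). The transcription factors of the lineage Ebf1 (log2 -2.0 ± 0.103), Pax5 (log2 -1.69 ± 0.12) and Lef1 (log2 -2.12 ± 0.106) fell with the recombinase genes Rag1 (log2 -1.32 ± 0.101) and Rag2 (log2 -1.62 ± 0.237). Both higher genes are known from later B cell stages: Jchain, the joining chain of secreted IgM and IgA, had 1110, 1086 and 1098 CPM in double mutant cells and 506, 459 and 605 CPM in Srsf2 mutated cells (log2 1.07 ± 0.0864), and Bank1 (log2 0.62 ± 0.158) lost its call without replicate 1 of the double mutant group. The mature B cell gene Ms4a1 was not called (log2 -0.07 ± 0.156). The motif of EBF1, TCCCNNGGGA, was found in 1 of the 17 matched promoters of lower B lymphoid genes (5.88%), that of Cd22, and in 99 of the 11413 promoters (0.867%). With all tested genes of the list, called or not, it was in 1 of 21 promoters, so the share rests on 1 promoter.

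Immunoglobulin V segments, looked at after their values had been seen, ran against the pre-B genes. Of 176 tested segments, 139 were higher (79%) and 18 were lower (10.2%), against 18.3% and 16.5% of all tested genes. Their summed level was 4002 to 4254 CPM per double mutant library and 1411 to 1758 CPM per Srsf2 mutated library. Single segments were found in 1 group and were absent or nearly absent in the other. Igkv4-51 had 9.7, 8.96 and 9.27 CPM in double mutant cells and no count in the Srsf2 mutated libraries, where 3 counts over the group would be 0.0224 CPM. Igkv4-91 showed the reverse, with 0.0967, 0 and 0 CPM in double mutant cells and 5.1, 4.41 and 5.7 CPM in Srsf2 mutated cells. Differences of at least 8-fold were held by 17 of the 137 segments with a mean of at least 4 CPM in 1 of the groups. Within the higher group the coefficient of variation between the 3 libraries had a median of 6.97% over these segments and reached 63.1%. The labels do not say whether the libraries of a group came from 1 mouse, a pool or several mice. Segments of these families share sequence, so reads could be counted for a near-identical neighbour.

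Stem cell genes leaned lower. Of 32 tested genes, 14 were lower and 6 were higher, against 16.5% and 18.3% of all tested genes. The median was -0.33. Erg, a transcription factor of stem cells, fell to 49.2, 50.5 and 47.3 CPM in double mutant cells, against 99, 87.8 and 85.3 CPM in Srsf2 mutated cells (log2 -0.89 ± 0.0762; edgeR adjusted p = 3.09e-06). Gata2 fell (log2 -0.72 ± 0.0587), as did Ctnnal1 (log2 -1.96 ± 0.191), Hlf (log2 -0.51 ± 0.131), Hoxa9 (log2 -0.43 ± 0.0925), Meis1 (log2 -0.31 ± 0.0946) and the progenitor antigen Cd34 (log2 -0.45 ± 0.0776). Ly6a, the Sca-1 antigen, rose (log2 1.19 ± 0.169), with 26.6, 25.8 and 25.4 CPM in double mutant cells and 9.49, 9.29 and 15.6 CPM in Srsf2 mutated cells, and so did Txnip (log2 0.71 ± 0.0625). Mecom (log2 0.14 ± 0.22), Hoxb5 (log2 -0.05 ± 0.683) and Procr (log2 -0.62 ± 0.446) were not called. Megakaryocyte and platelet genes were higher in 6 and lower in 4 of 21, beside 18.3% and 16.5% of all tested genes. Their median was -0.04. Thbs1, thrombospondin, was 3.5-fold higher (log2 1.81 ± 0.0772), whereas the platelet integrin Itga2b fell to 70, 65.8 and 69.9 CPM in double mutant cells, against 141, 155 and 147 CPM in Srsf2 mutated cells (log2 -1.11 ± 0.0661). Pf4 (log2 -0.29 ± 0.167) and Gp9 (log2 0.45 ± 0.266) were not called.

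Among the other granulocytes, 10 of 12 tested eosinophil genes were higher and none was lower, against 18.3% and 16.5% of all tested genes. Their median was 0.83, although Prg2, the major basic protein, rose only slightly (log2 0.28 ± 0.0748) and Epx, eosinophil peroxidase, was not called (log2 -0.12 ± 0.057). The eosinophil ribonucleases Ear1 (log2 1.07 ± 0.0876) and Ear6 (log2 0.93 ± 0.0854) and the chemokine receptor Ccr3 (log2 1.54 ± 0.153) were higher. The Ear genes are near-identical copies, so counts may be split between them. Of 19 mast cell and basophil genes, 11 were lower and 6 were higher, with a median of -0.38. Several basophil genes fell. Prss34, a basophil protease, had 164, 170.2 and 172 CPM in double mutant cells and 493, 452 and 557 CPM in Srsf2 mutated cells (log2 -1.57 ± 0.0769; edgeR adjusted p = 2.92e-08). Mcpt8 (log2 -1.41 ± 0.0985), Cd200r3 (log2 -1.46 ± 0.0834) and Ms4a2, the beta chain of the IgE receptor (log2 -1.26 ± 0.0736), followed. Il1rl1 (log2 1.02 ± 0.0851) and Hdc (log2 0.48 ± 0.0528), members of the same list, were higher. The proteases of connective tissue mast cells were higher at low levels. Mcpt4 had 1.8, 1.61 and 1.17 CPM in double mutant cells and 0.0448, 0.200 and 0.102 CPM in Srsf2 mutated cells, and Tpsb2 had 1.9, 3.63 and 2.31 CPM in double mutant cells and 0.157, 0 and 0.407 CPM in Srsf2 mutated cells. With a minimum of 10 counts in every library, 3 of the list's genes were higher.

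Monocyte and macrophage genes were higher in 13 and lower in 5 of 31 tested, against 18.3% and 16.5% of all tested genes. Their median was 0.26. Fn1, fibronectin, had 586, 576 and 581 CPM in double mutant cells and 91.4, 98.1 and 64.6 CPM in Srsf2 mutated cells (log2 2.78 ± 0.127; edgeR adjusted p = 1.66e-08). Lyz2 (log2 1.19 ± 0.0717) and Ccr2 rose, while Irf8, the factor that directs progenitors toward monocytes and dendritic cells, fell (log2 -0.37 ± 0.0578) together with Klf4 (log2 -0.38 ± 0.0661). Csf1r was not called (log2 0.11 ± 0.0600). Leaving out replicate 1 or 3 of the double mutant group or replicate 1 of the Srsf2 mutated group left 3 lower genes, as did the fit over all 10 libraries. Dendritic cell and MHC class II genes were higher in 4 and lower in 4 of 22, near the 18.3% and 16.5% of all tested genes. Cd209a (log2 2.90 ± 0.181) and Siglech (log2 2.38 ± 0.236) rose at low levels, and H2-Aa (log2 -0.04 ± 0.0806) and Cd74 (log2 0.07 ± 0.068) were not called. T and NK cell genes were higher in 8 and lower in 2 of 27, with a median of 0.53, and a summed level of 232.3 to 240.5 CPM in double mutant libraries and 236 to 289 CPM in Srsf2 mutated libraries. Cd8a had 3.58, 3.52 and 3.83 CPM in double mutant cells and 0.649, 0.581 and 0.763 CPM in Srsf2 mutated cells (log2 2.46 ± 0.26). Endothelial and stromal genes were higher in 5 and lower in 2 of 16 tested (1 lower without replicate 1 or 3 of the double mutant group or replicate 1 or 2 of the Srsf2 mutated group). Of the 18 genes on the list, tested or not, 7 stayed under 1 CPM in all 6 libraries. The summed level of the list was 106.7 to 108.8 CPM in double mutant libraries and 136.6 to 142.6 CPM in Srsf2 mutated libraries.

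**Figure D4:**
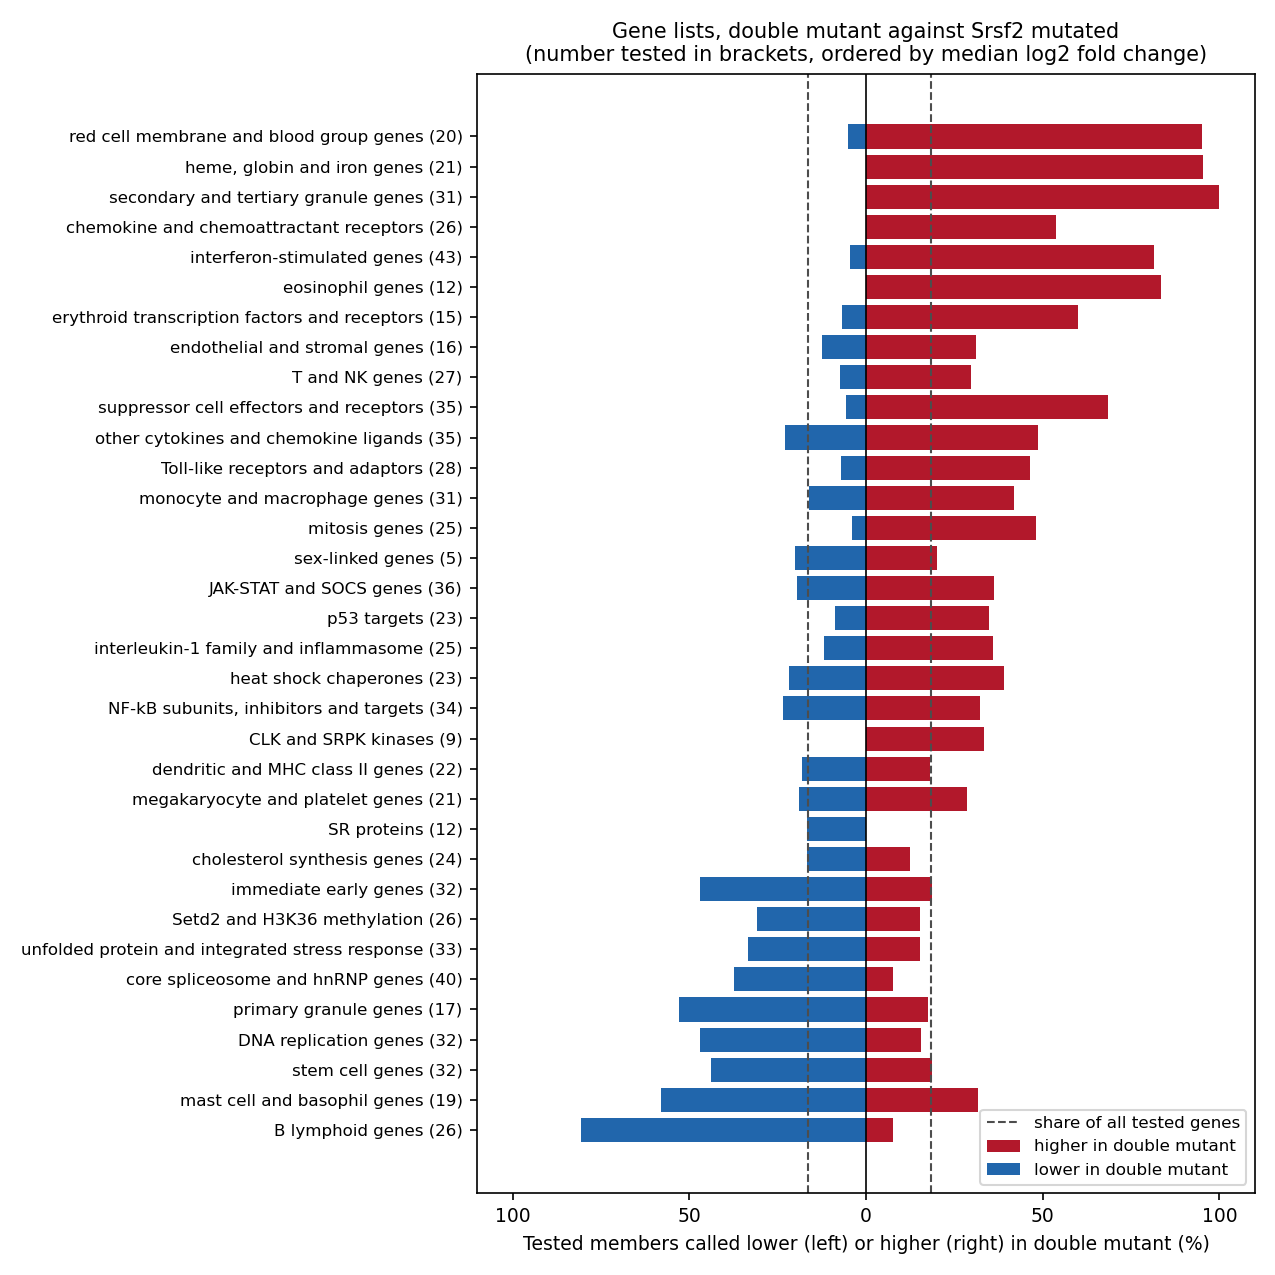
Share of the tested members of each of 34 gene lists that were called lower (blue, to the left) or higher (red, to the right) in double mutant cells, with the number tested in brackets and lists ordered by their median log2 fold change, highest at the top. Dashed lines mark the shares of all tested genes, 16.5% lower and 18.3% higher; the red cell, late granule and interferon lists lie far beyond the right line and the B lymphoid list far beyond the left one.

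Mitosis genes were called higher more often than lower, and DNA replication genes lower more often than higher, with exceptions in both lists. Their counts stand beside 18.3% higher and 16.5% lower among all tested genes. Of 25 mitosis genes, 12 were higher and 1 was lower, with a median of 0.20. Mki67, the proliferation marker, had 1408, 1393 and 1452 CPM in double mutant cells and 958, 969.8 and 691 CPM in Srsf2 mutated cells (log2 0.70 ± 0.106; edgeR adjusted p = 3.18e-04). Aurka (log2 0.65 ± 0.0839), Ube2c (log2 0.69 ± 0.0939) and Cenpf (log2 0.59 ± 0.0685) rose, Top2a fell (log2 -0.29 ± 0.0558), and Cdk1 was not called (log2 -0.11 ± 0.062). Of 32 DNA replication genes, 15 were lower and 5 were higher, with a median of -0.22. The replicative helicase subunits Mcm2 (log2 -0.26 ± 0.055), Mcm3 (log2 -0.47 ± 0.0532), Mcm4 (log2 -0.28 ± 0.0543), Mcm5 (log2 -0.36 ± 0.0522), Mcm6 (log2 -0.43 ± 0.0628) and Mcm7 (log2 -0.39 ± 0.0535) all fell. The G1 cyclins Ccne1 (log2 0.56 ± 0.0795) and Ccne2 (log2 0.45 ± 0.10) rose, as did Rrm2 (log2 0.32 ± 0.0568) and Orc1 (log2 0.41 ± 0.081).

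Stress programs changed in part. The counts of these lists stand beside 18.3% higher and 16.5% lower among all tested genes. Of 32 immediate early genes, 15 were lower and 6 were higher, with a median of -0.14. Fosb fell to 1332, 1330 and 1336 CPM in double mutant cells, against 2545, 2660 and 2336 CPM in Srsf2 mutated cells (log2 -0.92 ± 0.0569; edgeR adjusted p = 2.01e-07), and the Egr1 difference (log2 -0.49 ± 0.0492) was not called in the fit over all 10 libraries (edgeR adjusted p = 0.0733). Fos was not called (log2 0.15 ± 0.0584), and Dusp1 (log2 0.62 ± 0.0645) and Fosl2 (log2 0.73 ± 0.0699) rose. Heat shock genes were higher in 9 and lower in 5 of 23, with a median of 0.08; 2 were lower without replicate 3, and 3 without replicate 2, of the double mutant group, and 3 without replicate 1 of the Srsf2 mutated group. Of 33 genes of the unfolded protein and integrated stress responses, 11 were lower and 5 were higher, with a median of -0.15; 9 were higher without replicate 3 of the Srsf2 mutated group. Several chaperones of the endoplasmic reticulum fell, among them Calr (log2 -0.48 ± 0.0513), Hsp90b1 (log2 -0.48 ± 0.0597) and Pdia3 (log2 -0.45 ± 0.0636). Members driven by ATF4 stood on both sides: Slc7a11, the cystine transporter, had 46.9, 52.7 and 49.5 CPM in double mutant cells and 9.42, 8.87 and 7.63 CPM in Srsf2 mutated cells (log2 2.52 ± 0.0965), Asns rose (log2 1.19 ± 0.0729), and Phgdh fell (log2 -0.73 ± 0.073). Of 23 p53 targets, 8 were higher and 2 were lower, with a median of 0.12; 1 was lower without replicate 1 or 3 of the double mutant group or replicate 1 of the Srsf2 mutated group. Fas (log2 1.93 ± 0.149) and Gadd45a (log2 1.07 ± 0.0817) rose, while Cdkn1a fell (log2 -0.48 ± 0.0827) and Mdm2 was not called (log2 0.12 ± 0.0603). Cholesterol synthesis genes were higher in 3 and lower in 4 of 24, with a median of -0.07, beside 18.3% higher and 16.5% lower among all tested genes.

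The genes with the widest differences outside immunoglobulin segments, pseudogenes and unnamed transcripts, among those with a mean of at least 4 CPM in 1 group were taken by a fixed rule, 10 in each direction. Syt14, a synaptotagmin, had 10.3, 9.31 and 11.5 CPM in double mutant cells and 0.582, 0.641 and 0.738 CPM in Srsf2 mutated cells (log2 3.99 ± 0.188; edgeR adjusted p = 2.16e-08). Next came Nrip3 (log2 3.83 ± 0.275), the aspartic protease Asprv1 (log2 3.73 ± 0.112), Il1f9, the fibrocystin-like Pkhd1l1 (log2 3.51 ± 0.119), the phosphatase Ptpn13 (log2 3.48 ± 0.397), the pantetheinase Vnn3 (log2 3.47 ± 0.219), the long noncoding RNAs Redrum (log2 3.44 ± 0.23) and Mirt2 (log2 3.42 ± 0.248), and Ifit1bl2 of the interferon-induced IFIT family (log2 3.30 ± 0.247). On the lower side stood Scn4b, a beta subunit of voltage-gated sodium channels, with 0.516, 1.11 and 0.737 CPM in double mutant cells and 19.4, 17.9 and 18.5 CPM in Srsf2 mutated cells (log2 -4.52 ± 0.199; edgeR adjusted p = 1.24e-08). It was followed by Ltbp4, which binds latent TGF-beta (log2 -3.79 ± 0.287), the BCL2 family member Bok (log2 -3.58 ± 0.238), Vpreb2 (log2 -2.78 ± 0.181), the G protein regulator Rgs8 (log2 -2.71 ± 0.228), Vpreb1, the pseudokinase Ptk7 of Wnt signalling (log2 -2.67 ± 0.211), Dntt, multimerin Mmrn1 (log2 -2.66 ± 0.159) and the R-spondin receptor Lgr5 (log2 -2.54 ± 0.271). All 20 showed no overlap between the groups, which the rule that chose them required. Of the 4 genes with the highest mean CPM, Hbb-bs and Ngp rose, whereas Eef1a1 (log2 -0.11 ± 0.0592; edgeR adjusted p = 0.2) and mt-Co1 (log2 0.11 ± 0.0658; edgeR adjusted p = 0.219) were not called; Eef1a1 was called lower with upper-quartile scaling or without replicate 2 of the Srsf2 mutated group.

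Genes on chromosome 9 within 20 Mb of Setd2 were called at shares near those of other genes. Of 357 tested, 74 (20.7%) were higher and 69 (19.3%) were lower, with a median of 0.01, against 18.3% and 16.4% of all other tested genes. The higher ones included Ccr1, the receptor kinase Mst1r with 6.8, 8.48 and 6.69 CPM in double mutant cells and 0.716, 1.1 and 1.4 CPM in Srsf2 mutated cells (log2 2.78 ± 0.245), Paqr9 (log2 2.80 ± 0.117), the amino acid transporter Slc6a20a (log2 2.29 ± 0.267), the chemerin receptor Ccrl2 (log2 2.08 ± 0.113) and 1300017J02Rik (log2 2.47 ± 0.102). The lower ones included Arpp21 with 3.77, 5.17 and 2.93 CPM in double mutant cells and 21.9, 20.4 and 20.3 CPM in Srsf2 mutated cells (log2 -2.40 ± 0.174), Bfsp2 (log2 -2.36 ± 0.232), Als2cl (log2 -1.80 ± 0.15), Tmem108 (log2 -1.57 ± 0.227) and Xylb (log2 -1.44 ± 0.294). By listed gene length in 4 classes of like size, 23.1% of the longest class were higher and 19% lower, against 13.9% and 7.69% of the shortest class; longer genes give more counts, and the part of depth in this was not tested. By gene type, 20.2% of 13444 protein-coding genes were higher and 20.1% lower, against 19.3% and 6.64% of 512 long intergenic noncoding RNAs and 9.29% and 1.8% of 721 antisense genes. Whether the counting used strand is not given in the sources used here, so reads of an antisense gene cannot be told apart from those of its partner. Xist, the RNA of the inactive X chromosome, had 6.74, 7.89 and 7.39 CPM in double mutant cells and 2.51, 1.38 and 1.43 CPM in Srsf2 mutated cells (log2 2.05 ± 0.235), and the Y-linked Eif2s3y had 45.6, 48.8 and 47.8 CPM in double mutant cells and 60.2, 54.6 and 56.2 CPM in Srsf2 mutated cells (log2 -0.27 ± 0.0704), a call lost without replicate 1 or 3 of the double mutant group. The Y-linked Ddx3y, Kdm5d and Uty were detected in all 6 libraries and not called.

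The Setd2 knockout difference was also set against the same difference without mutated Srsf2. An interaction fitted over all 10 bulk libraries, the difference of double mutant over Srsf2 mutated minus that of Setd2 knockout over wild type, was called for 6160 of 19289 tested genes (31.9%), 3229 positive and 2931 negative. With upper-quartile scaling the split was 2438 positive and 4039 negative. S100a8 averaged 5678 CPM in double mutant and 2544 CPM in Srsf2 mutated cells, and 1189 CPM in Setd2 knockout and 3979 CPM in wild type cells, an interaction of 2.90 ± 0.17 on the log2 scale (SE; edgeR adjusted p = 4.29e-09). Its log2 fold change was 1.16 with mutated Srsf2 and -1.74 without it, so the 2 contrasts had opposite signs. Il6 averaged 38.2 CPM in double mutant and 102 CPM in Srsf2 mutated cells, and 1.28 CPM in Setd2 knockout and 0.224 CPM in wild type cells, an interaction of -3.93 ± 0.293 on the log2 scale (SE; edgeR adjusted p = 6.03e-08). Il1b averaged 211 CPM in double mutant and 49 CPM in Srsf2 mutated cells, and 2.1 CPM in Setd2 knockout and 1.91 CPM in wild type cells, an interaction of 1.96 ± 0.178 on the log2 scale (SE; edgeR adjusted p = 4.63e-07); Il1b was near 2 CPM in both groups without mutated Srsf2. Vpreb1 averaged 22.6 CPM in double mutant and 146 CPM in Srsf2 mutated cells, and 6.77 CPM in Setd2 knockout and 9.75 CPM in wild type cells, an interaction of -2.17 ± 0.176 on the log2 scale (SE; edgeR adjusted p = 1.43e-07), with both contrasts below 0. Genes such as Ptk7 (-2.67 with and -2.28 without mutated Srsf2; edgeR adjusted p of the interaction = 0.255) and Redrum (3.44 with and 2.98 without mutated Srsf2; edgeR adjusted p of the interaction = 0.453) had the same sign in both contrasts, and no difference between the contrasts was detectable there. The contrasts of Setd2 had opposite signs, since wild type libraries held fewer of them than libraries with the Setd2 knockout label: the gene averaged 130.4 CPM in double mutant and 197 CPM in Srsf2 mutated cells, and 222 CPM in Setd2 knockout and 152 CPM in wild type cells, an interaction of -1.14 ± 0.156 on the log2 scale (SE; edgeR adjusted p = 3.48e-05). Xist averaged 7.41 CPM in double mutant and 1.78 CPM in Srsf2 mutated cells, and 0.598 CPM in Setd2 knockout and 486 CPM in wild type cells. Wild type thus stood apart from the other groups in a sex-linked gene, and the parts of sex and genotype in the interaction cannot be told apart with 2 libraries each of Setd2 knockout and wild type.

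**Figure D5:**
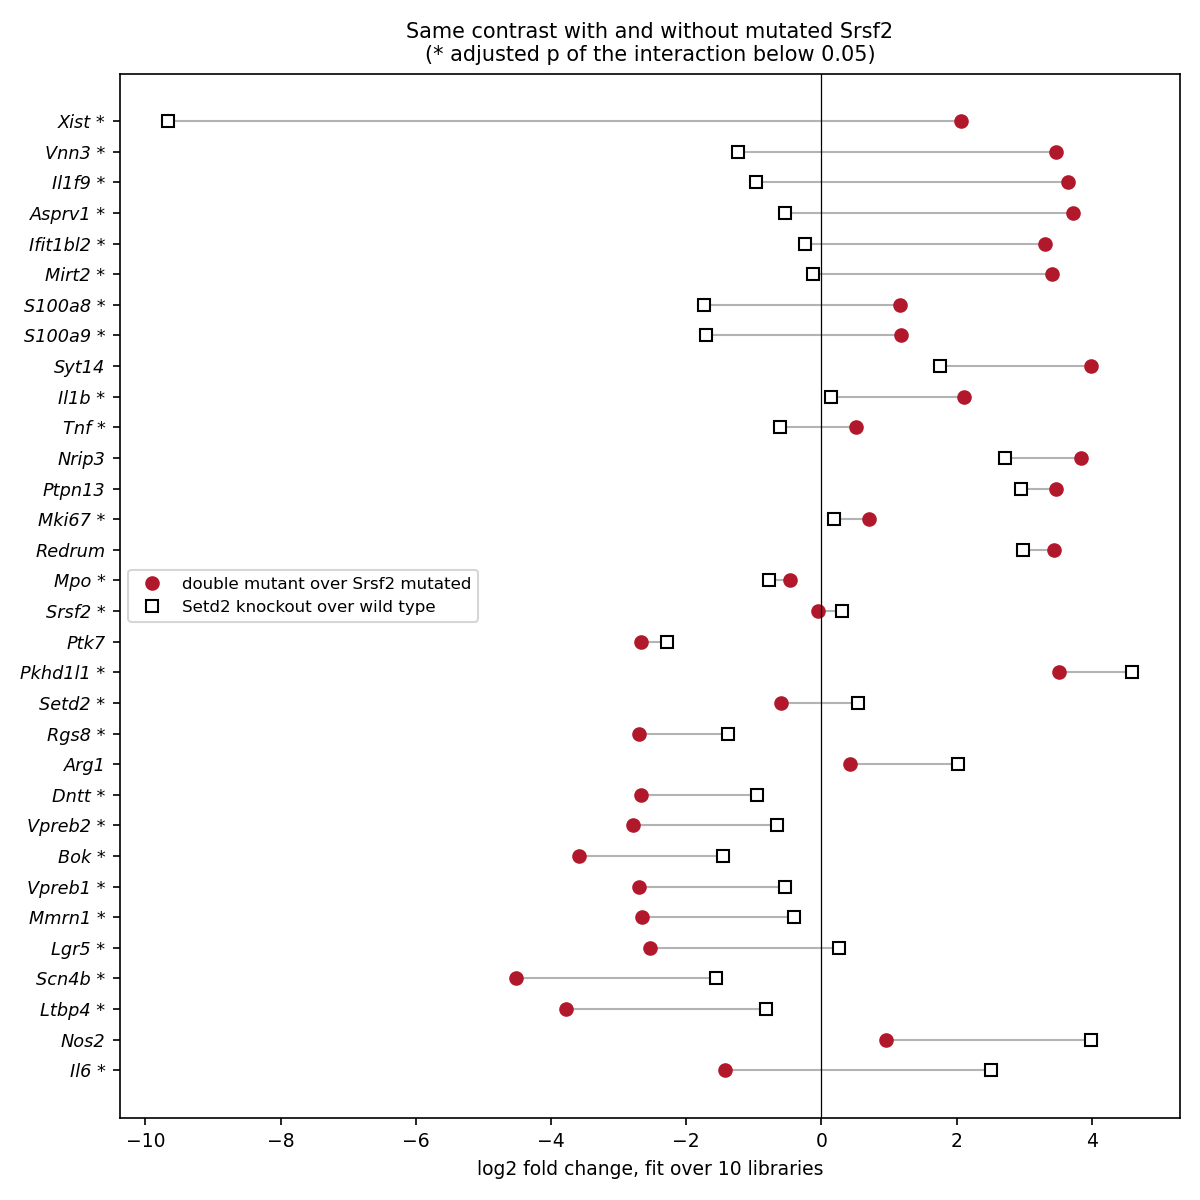
Log2 fold change of double mutant over Srsf2 mutated cells (red circles) and of Setd2 knockout over wild type cells (open squares) for 32 genes, from the fit over 10 libraries, ordered by the interaction; stars mark the 25 genes whose interaction was called. S100a8, S100a9, Tnf, Il1f9, Asprv1, Vnn3, Il6, Setd2 and Xist are among the genes with symbols on opposite sides of 0.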

How the data were processed

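RNA of 10 bulk libraries was sequenced, and the 6 libraries of double mutant and Srsf2 mutated cells were compared. The authors deposited raw counts per gene for each library, and FPKM values that equal, per the file headers and a check of the values, the count per kilobase of listed length, scaled to the total of that library. Per the submitters' processing notes, the bulk and single-cell data went through featureCounts 2.0.1 and HTSeq 0.9.1, the aligners STAR 2.6.1a and HISAT2 2.0.5, SAMtools 1.7, Seurat 3.2.0 and DESeq2 1.22.2, with no role given for each. Strandedness is not given in the sources used here, and the authors' deposited fold changes and p-values were not used.

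Counts were fitted with edgeR 4.0.16 (limma 3.58.1, R 4.3.3): TMM factors, filterByExpr, the quasi-likelihood test with group as the only term, and Benjamini-Hochberg adjustment over all tested genes. The SE is the log2 fold change divided by the root of the F statistic. CPM values use TMM-scaled library totals. The interaction was fitted over all 10 bulk libraries. Of 55421 listed genes, 55154 matched GENCODE for positions and types, and 27 symbols deposited as dates were restored by gene ID. Replicates of a group differed by more than sampling noise. The procedure was run on simulated counts in which few genes changed and both groups had the same spread. That simulation is no check of scaling, or of error control under the unequal spread seen here. Alternatives were median-of-ratios and upper-quartile scaling, no filter, at least 10 counts in every library, DESeq2 1.42.0, a replicate block, a fit over all 10 libraries, and each library left out. The limit of 3 counts covers counting error only.

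Genes were named by a rule: 12 always, the 10 widest changes in each direction (at least 4 CPM in the higher group, no overlap), up to 4 called members per list and direction by adjusted p, up to 6 per direction within 20 Mb of Setd2, and the 4 most abundant genes. Other named members were chosen after their values were seen, and some genes that the rule picks are not reported here. The comparison, the lists and the rule were chosen with earlier results of these data known, and the lists are described by counts and medians without a test of the list.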

Additional observations from a re-analysis of the deposited data

Results flagged for a closer look

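Of 32 genes given, 12 were chosen by name and 20 for the widest double mutant over Srsf2 mutated differences, 1 arm of the interaction. The 25 genes below were singled out because the difference of double mutant over Srsf2 mutated cells differed from that of Setd2 knockout over wild type cells, by the interaction term of edgeR over 10 libraries at an adjusted p below 0.05. Each value is that interaction on the log2 scale, the first difference minus the second. Because of that choice, their number is not to be read against the share of all genes with a called interaction. Xist separated wild type from the other groups.

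Neutrophil and cytokine genes with a positive interaction were S100a8 (2.90), S100a9 (2.88), Mpo (0.32), Il1b (1.96), Tnf (1.14), Il1f9 (4.61) and Vnn3 (4.70). Mki67 (0.51), Asprv1 (4.26), Mirt2 (3.55), Ifit1bl2 (3.55) and Xist (11.72) were positive as well. Some of these genes were near the floor without mutated Srsf2, which leaves the size of their interaction uncertain. Vnn3 (SE 0.703) averaged 0.0536 CPM in Setd2 knockout and 0.129 CPM in wild type cells. Mirt2 (SE 0.979) averaged 0.0646 and 0.0706 CPM in the same groups, and Asprv1 (SE 0.27) 0.684 and 0.988 CPM. Il6 had a negative interaction of -3.93, with 1.28 CPM in Setd2 knockout and 0.224 CPM in wild type cells. Setd2 (-1.14) and Srsf2 (-0.35) were negative too. The B lymphoid genes Vpreb1 (-2.17), Vpreb2 (-2.12) and Dntt (-1.71) were negative, and so were Pkhd1l1 (-1.07), Scn4b (-2.95), Ltbp4 (-2.96), Bok (-2.13), Rgs8 (-1.32), Mmrn1 (-2.24) and Lgr5 (-2.79).

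Both differences were positive for Pkhd1l1 and negative for Vpreb1, Dntt and Mpo, and they had opposite signs for S100a8, S100a9, Il6 and Setd2.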

How the results depend on the processing

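The count of changed genes stayed within 1.5 times of 6091 under every alternative run: 6085 with median-of-ratios scaling, 6586 with upper-quartile scaling, 6650 without a filter, 5925 with at least 10 counts in every library, 6451 with DESeq2 and 6511 over all 10 libraries. It ranged from 4598 to 7211 when single libraries were left out. Of the 6091 genes, 74.1% to 99.5% were called again, none with the opposite sign. With the replicate block, 5824 genes were called, and 6188 for the interaction. The labels do not say that equal numbers pair libraries, so the main fit had no replicate block. Same-numbered libraries also did not deviate together (r = -0.012, -0.019 and 0.002). Interaction counts ran from 5530 to 6491 under the other settings and from 4472 to 7567 with single libraries left out.

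Among the 237 genes picked by the naming rule, 232 were called and 26 lost or gained a call in some alternative, without a change of sign; list members named outside the rule were followed only within the list counts. Of 884 list counts under alternatives, 72 were more than 1.5 times from the value reported, mostly counts of 5 or fewer and lists of small differences such as the spliceosome genes; the cause was not tested. With 3 libraries per group, the wide errors of genes at low levels, such as Arg1 and Nos2, leave the size of any difference uncertain.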
